A study of Mus musculus with 6 samples.

Results

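Excitatory neuron 15 is the authors' name for a small cluster of neuronal nuclei in a single-nucleus RNA data set of the mouse hippocampus, and the genes taken to mark it are Nptx2, Bdnf, Pcdh8, Tll1 and Synpo. Its members were the 55 nuclei, of 28650 in all, that the deposited metadata assign to this cluster. They are described beside the 4609 nuclei of Excitatory neuron 2 and 3 pooled, the clusters whose summed profiles were nearest to it. All mice were male PS19 mice, whose human tau transgene, with the P301S change and driven by the mouse prion promoter, makes tau build up in neurons. They had either a sham operation or a mild traumatic brain injury (TBI), made by controlled cortical impact on the right hemisphere. Each received an adeno-associated virus (AAV) with either GFP, as the control, or VEGFC, a ligand that makes lymphatic vessels grow. There were 6 libraries, 1 per combination, and values by library are given in this order: the sham libraries with GFP and then VEGFC (both right), the GFP libraries after TBI (right, then left), and the VEGFC libraries after TBI (right, then left). Left stands for the hippocampus opposite the impact. Tau P301S is shared by every group, so no library shows the cluster without it. The labels give neither age nor the number of mice in a library, so p-values between them measure only the spread of these libraries, which may be technical.

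Neurons that have just been strongly activated switch on genes in waves. Within minutes, calcium entering the cell acts through CREB, SRF and MEF2 on rapid genes that need no new protein. These encode transcription factors such as Fos, Npas4, Egr and Nr4a members, and effectors such as Arc, which removes AMPA receptors from synapses. Later genes include secreted and synaptic proteins: the neurotrophin Bdnf, the pentraxin Nptx2, which gathers AMPA receptors at synapses onto interneurons, and the spine apparatus protein Synpo. In the dentate gyrus only a sparse set of granule cells shows such a response at any one time, and it is widely used to find recently active cells.

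The cluster held 245978 UMIs (unique molecular identifiers, each counting 1 captured RNA molecule). In the same order the libraries contributed 8, 6, 5, 8, 11 and 17 nuclei, with 41148, 15723, 17928, 30263, 35525 and 105391 UMIs. TBI VEGFC left held 42.8% of the UMIs of the cluster. The median nucleus had 4298 UMIs, against 3419 in Excitatory neuron 2 and 3, and its median doublet score was 0.0387 against 0.0462. 12 of the 55 nuclei had a doublet score over 0.05. 1 member had a barcode that also occurs in another library. Malat1, a nuclear noncoding RNA, took 13.3% of the UMIs in the cluster and 9.60% in Excitatory neuron 2 and 3. The summed profile was most like Excitatory neuron 2 (Pearson r = 0.901 across 9383 genes) and Excitatory neuron 3 (r = 0.899), followed by Excitatory neuron 8 (r = 0.874) and Excitatory neuron 4 (r = 0.818). Without the activity lists the first 2 were 0.906 and 0.905. These correlations are descriptions across genes, and all clusters come from the same 6 libraries.

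The granule cell markers were in part present and in part not. Prox1, the transcription factor that keeps granule cell identity, had 98 UMIs where 67.1 were expected, and its level of 398 CPM (counts scaled to the same total in each sum) was the highest of the 32 clusters. Expected UMIs here and below are those the cluster would hold at the level of Excitatory neuron 2 and 3 and its own total. Stxbp6, with 123 UMIs against 168.5 expected, and Trpc6, with 87 against 66.4, ranked 2 and 3 among the clusters. Calb1, the calcium buffer calbindin of mature granule cells, had 6 UMIs against 31.8 expected. Plk5 had 0 UMIs against 17.7 expected, which allows a ratio of up to 0.209 by the exact Poisson 95% interval. At a common depth of 1000 UMIs a nucleus, Prox1 was found in 30.9% of members, 22.2% of Excitatory neuron 2 and 3 and 18.7% of oligodendrocytes. Over the 9 granule markers the summed level was 1024 to 1499 CPM in the libraries of the cluster and 1421 to 1610 CPM in those of Excitatory neuron 2 and 3. Among general excitatory genes, Slc17a7, the vesicular glutamate transporter, had 76 UMIs against 54.5 expected.

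Among markers of other cells, most lists were near or below the level of Excitatory neuron 2 and 3. The 6 CA1 markers had 3 UMIs in all against 5.47 expected, and the 5 markers of mossy cells had 2 against 3.89. The 6 CA3 markers had 53 against 113.7, of which Nectin3, an adhesion protein, was the exception with 16 against 5.97. The 8 cortical and subicular markers had 3 UMIs against 6.92. The 6 markers of immature neurons had 16 against 13.9, 13 of them from Sox11, and Dcx was at 0. Markers of astrocytes (19 against 43.4), oligodendrocytes (21 against 34.4), microglia (21 against 54.4) and oligodendrocyte precursors (1 against 1.91) were all below the level expected. So were those of CA2 neurons (17 against 34.4), choroid plexus (57 against 73.7), fibroblasts (1 against 2.14) and endothelium (4 against 7.63). For interneurons, Gad2, Lhx6, Pvalb and Lamp5 were at 0, where at most 1.63 UMIs each were expected, so a difference was not detectable at this depth. Slc32a1 (2 against 0.806), Vip (3 against 2.25) and Sst (9 against 7.74) were near the level expected. Gad1, which makes GABA, had 29 UMIs in 11 nuclei against 9.18 expected, and was above the level of Excitatory neuron 2 and 3 in 3 of 6 libraries. Adarb2, an RNA-binding protein, held most UMIs of this list, with 193 against 309.4. Summed over the 9 interneuron markers the level was 959 CPM against 1351 CPM. The part of Gad1-bearing nuclei in the other results was not tested.

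The values that follow are descriptions without a test, because the clusters were formed on the expression of these same genes. Each ratio is the number of UMIs found over the number expected, with an exact Poisson 95% interval that covers counting error in the cluster sum alone. Among 4206 genes with an average of at least 10 UMIs found and expected, the median log2 ratio was -0.14, so the genes as a whole sit slightly below the level expected. The part of Malat1 in this shift was not tested.

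In mm10, with GENCODE vM21 gene models, the protein-coding genes lie at chr5:144545902-144557478 (Nptx2, + strand), chr2:109674700-109727007 (Bdnf, + strand), chr14:79766775-79771312 (Pcdh8, - strand) and chr8:64014931-64206271 (Tll1, - strand). Nptx2 was found at 97.2, 127, 279, 264, 253 and 75.9 CPM in the 6 libraries, in the order given above, from 2 to 9 UMIs each. In Excitatory neuron 2 and 3 it was at 4.9 to 6.19 CPM, so the ranges were far apart. Over all libraries it had 36 UMIs against 1.32 expected, 27.2-fold (interval 19 to 37.6), spread over 21 nuclei. Bdnf, the neurotrophin that signals through TrkB, stood at 608, 318, 112, 628, 479 and 541 CPM. TBI GFP right was the lowest with 2 UMIs, near the 72.7 to 96.2 CPM of Excitatory neuron 2 and 3, and the others were well above it. The pooled ratio was 6.04 (5.03 to 7.20), with Bdnf in 43 of 55 nuclei.

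Pcdh8 (arcadlin), a protocadherin that takes N-cadherin off synapses, was at 608, 191, 446, 363, 563 and 313 CPM, against 29.2 to 39.3 CPM in Excitatory neuron 2 and 3. Its ratio was 12.1 (9.85 to 14.7), with UMIs in 41 nuclei. Tll1 (tolloid-like 1), a secreted metalloprotease that cleaves the BMP inhibitor chordin, was at 729, 63.6, 558, 694, 169 and 408 CPM. Both right-side VEGFC libraries were lowest, with 1 and 6 UMIs, yet above the 2.68 to 8.18 CPM of Excitatory neuron 2 and 3. Its ratio of 77.9 (64.1 to 93.8) rested on 111 UMIs in 26 nuclei. Synpo was the most even of these genes, at 365, 318, 446, 760, 563 and 541 CPM against 51.4 to 72 CPM, a ratio of 8.89 (7.42 to 10.6) with 39 nuclei holding a UMI.

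**Figure D1:**
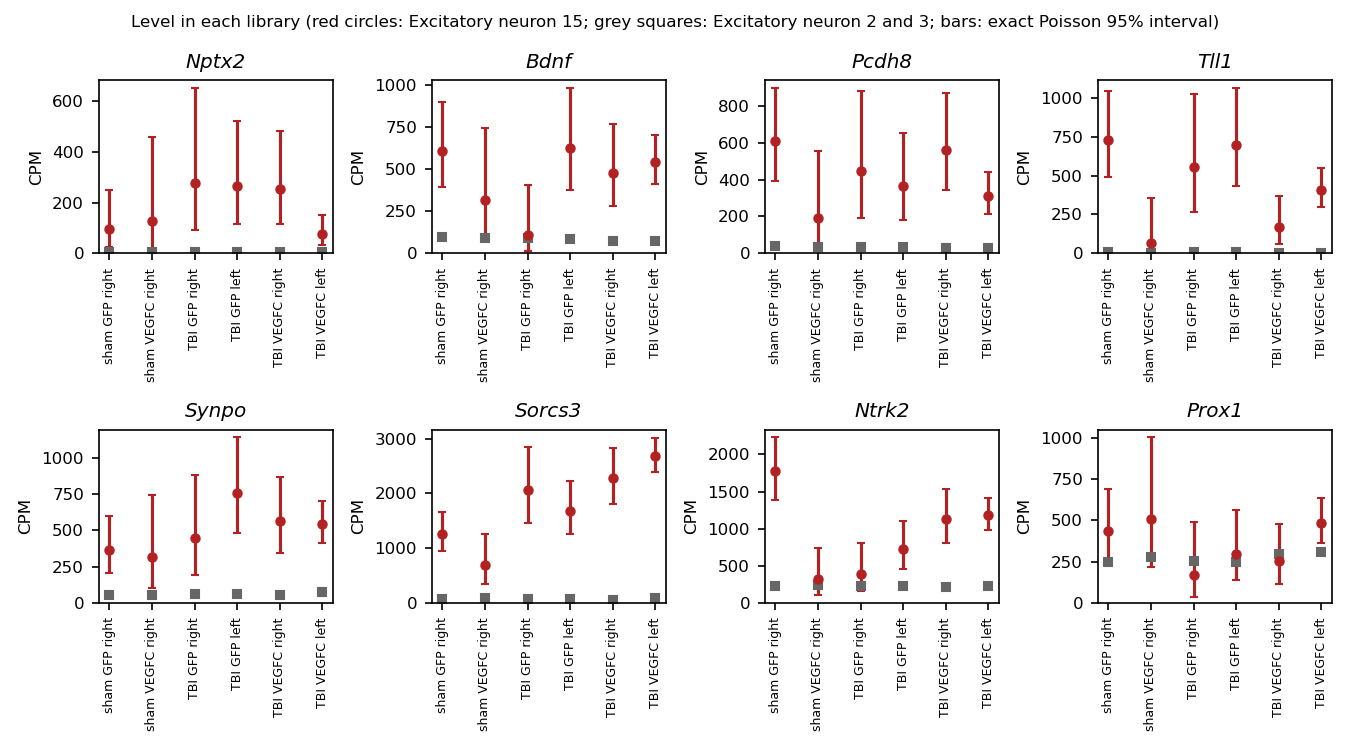
Level in CPM (vertical axes, linear) of 8 genes in each of the 6 libraries (horizontal axes), for Excitatory neuron 15 (red circles, with exact Poisson 95% intervals) and Excitatory neuron 2 and 3 pooled (grey squares). Nptx2 is at 75.9 to 279 CPM in the cluster and at most 6.19 CPM in Excitatory neuron 2 and 3, while Prox1 overlaps between them.

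At 1000 UMIs a nucleus, Nptx2 was found in 11 of the 55 members (20%, exact binomial 95% interval 10.4 to 33.0), in 0.521% of Excitatory neuron 2 and 3 and in 0.221% of oligodendrocytes, a cell type that should lack it. Without thinning the shares were 38.2%, 1.76% and 0.265%. For Tll1 the thinned shares were 21.8%, 0.325% and 0.0885%, and the unthinned ones 47.3%, 1.89% and 0.0885%. For Bdnf they were 30.9%, 7.77% and 1.06% after thinning and 78.2%, 23.0% and 1.24% before. The median oligodendrocyte nucleus had 1307 UMIs.

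Each of these genes was higher in Excitatory neuron 15 than in every other cluster of the 32. For Nptx2 (146 CPM) the next was Microglia at 17.7 CPM, resting on 10 UMIs, and then Excitatory neuron 1 at 15.2 CPM. Bdnf (508 CPM) was followed by Excitatory neuron 2 at 119 CPM and Excitatory neuron 8 at 73.9 CPM. Pcdh8 (407 CPM) was followed by Inhibitory neuron 7 at 66.6 CPM. Tll1 (451 CPM) had the closest neighbours, Inhibitory neuron 7 at 129 CPM and Inhibitory neuron 1 at 80.3 CPM, and it was at 6.39 CPM in Excitatory neuron 2. Synpo (520 CPM) was followed by Excitatory neuron 7 at 67.3 CPM and Excitatory neuron 8 at 66.6 CPM, which did not differ beyond their counting error.

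**Figure D2:**
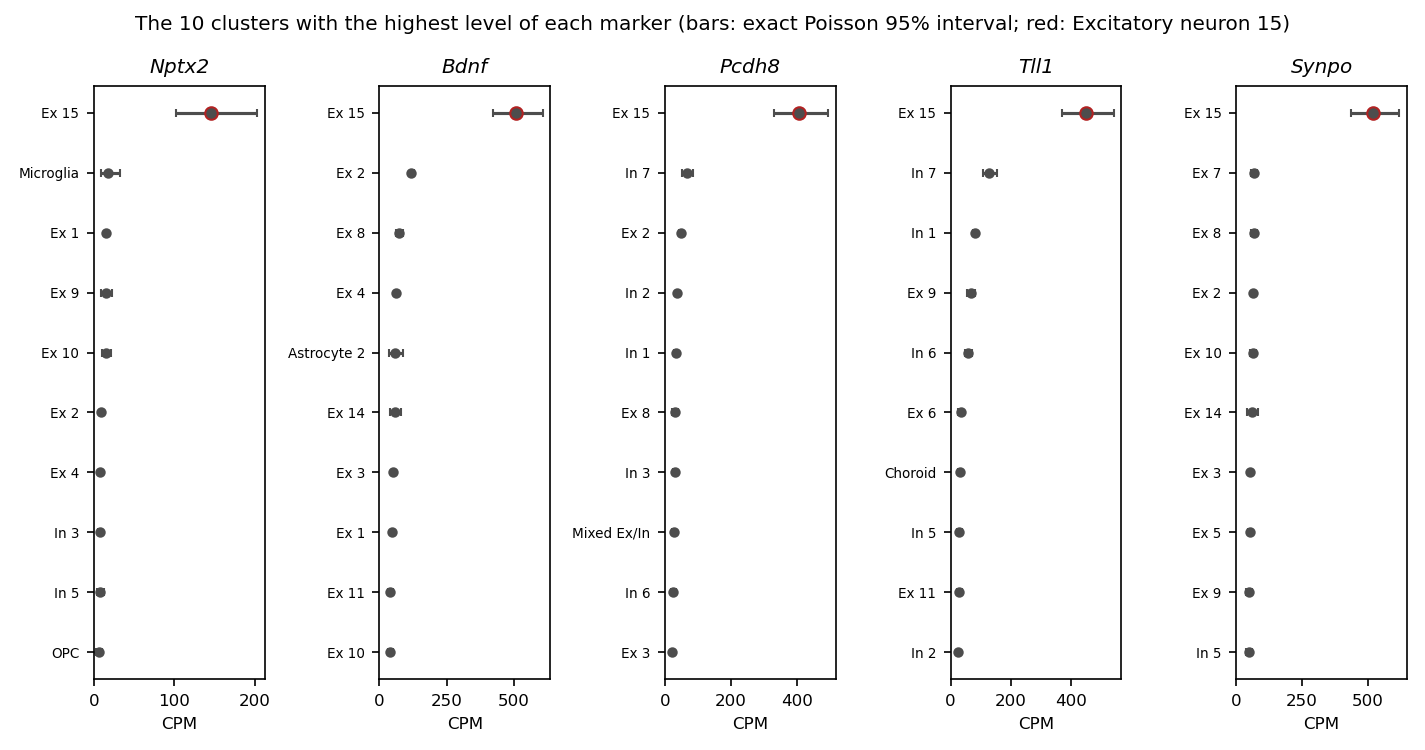
The 10 clusters with the highest level of each of the 5 marker genes, as CPM over all libraries (horizontal axes, linear) with exact Poisson 95% intervals; Ex stands for excitatory and In for inhibitory neuron clusters. Excitatory neuron 15 (red) is first in each panel, and the next cluster is at 17.7 CPM for Nptx2 and 129 CPM for Tll1.

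Of 18 late activity genes, 14 were at least 2-fold higher in the cluster with at least 10 UMIs, none was 2-fold lower, and 12 were higher there than in any other cluster. Of the 18, 15 had at least 10 UMIs found or expected. Over all 5015 such genes, 8.02% were higher and 18.5% lower by the same rule. The list was chosen knowing this cluster and holds its 5 marker genes, so its count describes the cluster and supports nothing. Sorcs3, a sorting receptor of the VPS10 family, had 515 UMIs against 18.3 expected (28.2-fold, 25.8 to 30.7). Within the reference it was at 136 CPM in Excitatory neuron 2 and 13.8 CPM in Excitatory neuron 3, a gap that the interval does not cover. The next highest cluster was Inhibitory neuron 3 at 709 CPM. In the cluster, Sorcs3 was at 1264 and 700 CPM in the sham libraries and at 1685 to 2685 CPM in the TBI libraries, where Excitatory neuron 2 and 3 had 58.6 to 90.5 CPM. The difference of TBI right from sham right did not pass in edgeR (log2 1.14, adjusted p 0.482). Its relative Sorcs1 had 47 UMIs against 4.46. Vgf, a neuropeptide precursor, had 20 against 2.22, with 0 in sham VEGFC right and TBI GFP right.

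Inhba, which forms activin A, had 89 UMIs against 23.6 and was at 408 to 450 CPM in 4 libraries, 165 CPM in TBI GFP left and 0 in sham VEGFC right. Nrn1 (neuritin), a surface protein that favours dendrite growth, had 135 against 46.7 and was higher in 6 of 6 libraries. Scg2, a secretogranin of dense-core vesicles, had 72 against 32.2 but was higher in 3 libraries and lower in the other 3, so its 2.24-fold ratio was smaller than the spread between libraries. Acvr1c, an activin receptor, had 41 against 14.2. Nptx1 did not follow Nptx2, with 30 UMIs against 32.9 expected, and Plat, the tissue plasminogen activator, had 1 against 6.71. The median log2 ratio of the 18 genes was 3.20 with 1 UMI added to each sum, and 2.71 where the addition to the larger reference sum was scaled to its depth. The same 2 medians were -0.13 and -0.20 over the 5015 genes.

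Of 23 rapid transcription factors, 12 were higher by the rule and none lower. All 10 of the 18 rapid effectors that reached 10 UMIs were higher. The 11 and 8 others had too few UMIs or, for Jun (23 against 15.3), a smaller ratio. Of the 23 transcription factors, 13 had at least 10 UMIs found or expected, and 8.02% of all such genes were higher. In these lists and the late list, a gene with under 10 UMIs expected, such as Fosb or Npas4, could not be called lower. It counted only through its level in the cluster, so the lack of lower genes is in part fixed by the rule. Fosb had 18 UMIs against 0.17 expected, but 9 of the 18 came from 1 nucleus and only 5 nuclei had any. Fos had 12 against 0.4, also in 5 nuclei, and both were at 0 in TBI GFP right, TBI GFP left and TBI VEGFC right. Npas4, a neuron-specific factor induced by calcium, had 20 against 0.4 in 9 nuclei. Broader members were Btg2, an antiproliferative gene (67 against 10.4, in 28 nuclei), Junb (49 against 5.73, in 28 nuclei) and Nr4a2, an orphan nuclear receptor (38 against 2.94, in 17 nuclei), all higher in 6 of 6 libraries.

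Among effectors, Arc had 31 UMIs against 0.36 expected and was at 97.2, 254, 167, 0, 84.4 and 161 CPM in the libraries, against 1.05 to 2.04 CPM in Excitatory neuron 2 and 3. Homer1, whose short form uncouples glutamate receptors, had 246 against 21.1 and varied widely, from 112 CPM in TBI GFP right to 1920 CPM in sham GFP right. 19.5% of its UMIs came from 1 nucleus. These 3' counts do not tell the short form from the long. Plk2, a kinase that weakens synapses after strong activity, had 59 against 11.9, and Arl5b had 31 against 7.31, both higher in 6 of 6 libraries. Ptgs2, the cyclooxygenase COX-2, had 23 against 1.93 and was at 0 in sham VEGFC right. Plk3 and Trib1 had 0 UMIs. The median log2 ratio was 3.47 for the transcription factors and 3.59 for the effectors, or 2.32 and 2.08 with the addition scaled to depth. Without TBI VEGFC left the counts of higher genes were 12 of 18 late genes, 11 of 23 transcription factors and 7 of 18 effectors. In the same order they were 12, 12 and 7 without TBI VEGFC right, and 13, 10 and 8 without sham GFP right.

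**Figure D3:**
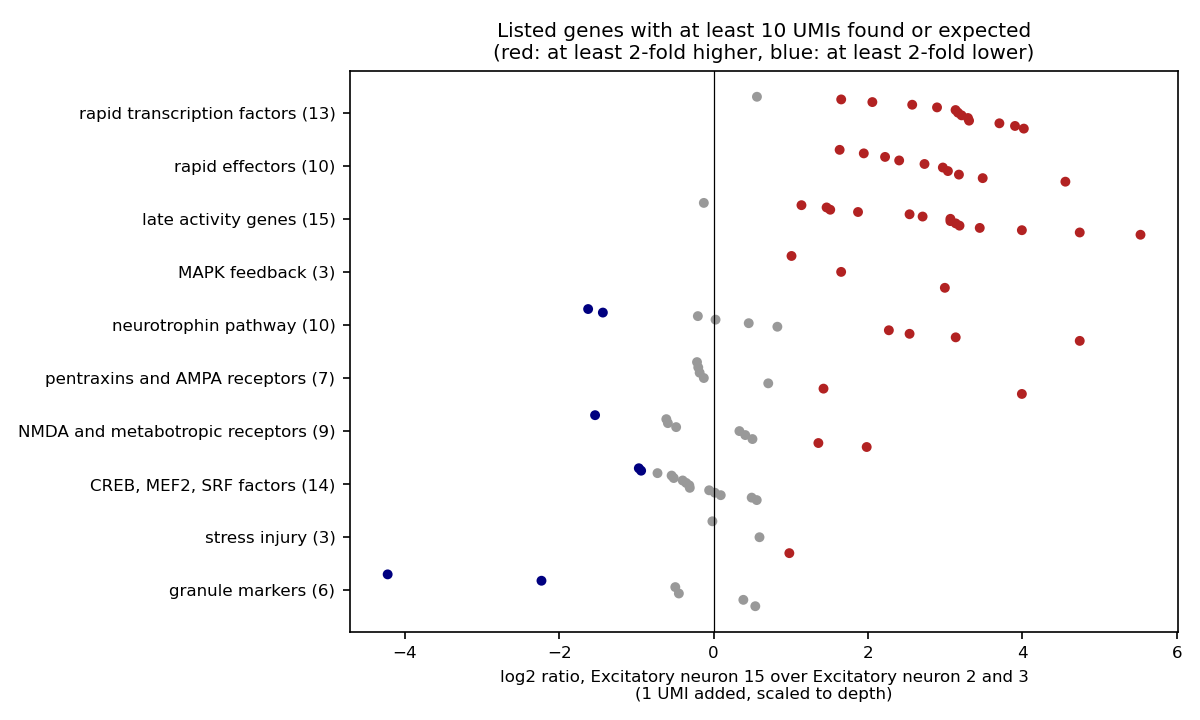
Log2 ratio of Excitatory neuron 15 over Excitatory neuron 2 and 3 (horizontal axis, 1 UMI added and scaled to depth) for genes of 10 lists with at least 10 UMIs found or expected, 1 point a gene; the number of genes follows each list's name. Points of the 3 activity lists lie to the right of 0 except Nptx1, while CREB, MEF2 and SRF factors lie near 0. Genes with fewer than 10 UMIs expected are shown only where they reached 10 UMIs in the cluster.

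CREB binds the cyclic AMP response element, and promoter windows of the activity genes were searched for its letters. RefSeq promoter windows (build GRCm38.p6), from 250 bases before to 50 after each gene start, were found for 44 of the 59 genes of the 3 activity lists. The full element TGACGTCA was in 6 of 44 (13.6%), and in 2.03% of the 27025 genes with a window. The shorter TGACG, read on both strands and also part of the full element, was in 29 of 44 (65.9%) and in 23.0% of genes. By list it was in 16 of 19 rapid transcription factors, 10 of 15 rapid effectors and 3 of 10 late genes. The AP-1 letters TGACTCA or TGAGTCA were in 2 of 44 against 5.95% of genes, and the CArG box in 2 of 44 against 1.81%. Of the 28 list genes with a window that were at least 2-fold higher in the cluster, 4 (14.3%) held the full element and 16 (57.1%) the shorter one. The AP-1 letters and the CArG box were in 0 of these 28. These shares describe letters in a window and were not tested for a role in the cluster.

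The 250 bases before the start are shown for the 4 higher genes whose window holds the full element, and, for contrast, for the higher late genes with a window that had the largest ratios, Tll1 and Sorcs3, which hold neither form. Each is written 5′ to 3′ on the gene's strand with both forms in capitals.
Btg2, chr1:134079156-134079405 (- strand): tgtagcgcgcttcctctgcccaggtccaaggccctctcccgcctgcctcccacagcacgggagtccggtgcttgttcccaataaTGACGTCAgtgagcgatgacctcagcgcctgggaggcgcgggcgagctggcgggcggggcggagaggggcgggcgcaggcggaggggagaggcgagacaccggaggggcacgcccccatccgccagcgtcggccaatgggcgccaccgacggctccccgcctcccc
Plk2, chr13:110394794-110395043 (+ strand): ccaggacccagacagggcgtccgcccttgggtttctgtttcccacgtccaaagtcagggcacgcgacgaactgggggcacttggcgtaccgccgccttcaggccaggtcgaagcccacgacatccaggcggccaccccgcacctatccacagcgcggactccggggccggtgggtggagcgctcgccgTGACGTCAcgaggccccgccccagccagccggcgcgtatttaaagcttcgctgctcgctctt
Arl5b, chr2:15055070-15055319 (+ strand): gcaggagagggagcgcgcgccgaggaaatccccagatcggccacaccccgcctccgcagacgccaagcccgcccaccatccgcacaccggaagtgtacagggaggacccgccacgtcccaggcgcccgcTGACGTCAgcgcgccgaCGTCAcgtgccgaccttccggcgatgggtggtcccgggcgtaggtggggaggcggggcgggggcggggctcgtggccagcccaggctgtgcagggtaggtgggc
Scg2, chr1:79440027-79440276 (- strand): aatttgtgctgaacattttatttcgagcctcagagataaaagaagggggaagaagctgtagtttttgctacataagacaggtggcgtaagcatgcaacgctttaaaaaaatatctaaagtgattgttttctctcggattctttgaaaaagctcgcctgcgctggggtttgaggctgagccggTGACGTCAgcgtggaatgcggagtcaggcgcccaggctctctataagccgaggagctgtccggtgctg
Tll1, chr8:64206009-64206258 (- strand): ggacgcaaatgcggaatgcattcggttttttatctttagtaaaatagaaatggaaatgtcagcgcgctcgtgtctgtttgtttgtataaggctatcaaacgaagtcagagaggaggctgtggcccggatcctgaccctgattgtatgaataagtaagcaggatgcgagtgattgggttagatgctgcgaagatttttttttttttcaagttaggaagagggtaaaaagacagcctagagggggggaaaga
Sorcs3, chr19:48205775-48206024 (+ strand): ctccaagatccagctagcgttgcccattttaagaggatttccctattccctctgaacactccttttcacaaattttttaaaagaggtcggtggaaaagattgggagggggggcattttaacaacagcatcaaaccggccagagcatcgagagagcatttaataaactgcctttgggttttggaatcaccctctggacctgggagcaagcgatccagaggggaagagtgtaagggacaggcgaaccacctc
The full element begins 166 bases before the start in Btg2, 62 in Plk2, 121 in Arl5b and 68 in Scg2. Btg2, Plk2 and Arl5b are rapid genes and were higher in 6 of 6 libraries, while Scg2, a late gene, was higher in 3 of 6.

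Of 14 neurotrophin pathway genes, 10 had at least 10 UMIs found or expected, and 4 were higher and 2 lower by the 2-fold rule. Over all 5015 such genes 8.02% were higher and 18.5% lower, so the count of lower genes is near the background. The higher genes were Bdnf, a marker of the cluster, Sorcs1 and Sorcs3 of the late list, and Ntrk2. Sorcs1 had under 10 UMIs expected and counted only through its level in the cluster. The count of higher genes therefore supports nothing about the pathway. Beside Bdnf, its receptor Ntrk2 (TrkB) had 272 UMIs against 55.6 expected (4.89-fold, 4.33 to 5.51), and at 1106 CPM it was above the astrocyte clusters, the next highest, at 922 to 954 CPM. Its exact Poisson interval, 978 to 1245 CPM, overlapped those of Astrocyte 2 and Astrocyte 3. Ntrk2 was at 1774, 318, 390, 727, 1126 and 1186 CPM in the libraries, all above the 211 to 240 CPM of Excitatory neuron 2 and 3. The values of 318, 390 and 727 CPM were below the pooled level of the astrocyte clusters. 37 of 55 nuclei had UMIs of both Bdnf and Ntrk2. The ligand Ntf3 (4 against 12.5) and Sort1, the sorting receptor sortilin that binds proBDNF (13 against 42.2), were lower. Ntrk3 (322 against 234.7) was within 2-fold, and Ngfr had 0 UMIs.

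Nptxr, the membrane receptor of pentraxins, had 50 UMIs against 18 and was higher in 6 of 6 libraries. The AMPA receptor genes Gria1 (405 against 465.2), Gria2 (551 against 624.9) and Gria3 (150 against 174.3) stood slightly below the level expected. Gria4 had 52 against 31.5 (1.65-fold, 1.23 to 2.17), with 0 in sham GFP right and TBI GFP right. Grm7, a presynaptic metabotropic receptor, had 1032 against 402.4 and ranked first of the 32 clusters, at 2309 to 5560 CPM in the libraries against 1575 to 1732 CPM. Grm8 had 65 against 15.7, and Grm3 had 4 against 13.5. The NMDA receptor genes Grin1, Grin2a and Grin2b had 99, 837 and 664 UMIs against 74.3, 663.9 and 468.3 expected.

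In the activin and tolloid group, Acvr1 (91 against 42.3) was higher with Inhba, Acvr1c and Tll1, while the type 2 receptor Acvr2a (22 against 47.1), Bmp1, a relative of Tll1 (3 against 11.8), and Chrd, which encodes chordin (7 against 27.4), were lower. Of 9 delta protocadherins, Pcdh8, Pcdh7 (104 against 40.7) and Pcdh11x (18 against 6.33) were higher, and Pcdh19 (6 against 28.1) and Pcdh10 (4 against 11.3) lower. Of 8 genes that brake MAP kinase signalling, 3 reached 10 UMIs and were higher: Spry2 (78 against 8.91), Spred2 (142 against 44.5) and Spred1 (41 against 19.9). Spry2, with under 10 UMIs expected, counted only through its level in the cluster. The others had too few UMIs to be called either way. Of 14 spine and actin genes in the table, Synpo, Homer1, Arc and the scaffold Shank1 (36 against 17.3) were higher, and Cttn, the actin-binding cortactin (4 against 18), and Shank3 (5 against 10.3) lower. In the order given, 7, 8, 3 and 11 genes of these lists had at least 10 UMIs found or expected. Over all 5015 such genes 8.02% were higher and 18.5% lower. With so few genes a list, the higher and lower ones describe single genes and not the list. Among the higher ones, Tll1, Pcdh8 and Synpo are marker genes of the cluster. Inhba, Acvr1c, Homer1 and Arc belong to the activity lists, which were chosen knowing it. Tll1, Pcdh8, Pcdh11x and Arc also had under 10 UMIs expected, as Spry2 did, and counted only through their level in the cluster. The counts of higher genes therefore support nothing about these families.

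Of 17 CREB, MEF2 and SRF genes in the table, which encode the proteins that act on activity genes, none was higher, and Crtc3 (13 against 26.4) and Elk1 (5 against 10.5) were lower, neither by 2-fold relative to the median gene. Of the 17, 14 had at least 10 UMIs found or expected. Neither the count of higher nor that of lower genes exceeds the background over all such genes, 8.02% and 18.5%, so they are no result about these genes. Scaling to the median gene also takes Acvr2a and Shank3 out of the lower genes and adds Pcdh17 (111 against 60.7) to the higher ones. Of 13 stress and injury genes, Hspa5, a chaperone of the endoplasmic reticulum, was higher (34 against 16.7), in 3 of 6 libraries, and 8 were not detected, among them Ddit3 and Gap43. Only 3 of the 13 had at least 10 UMIs found or expected, so 1 higher gene, beside 8.02% of all such genes, is no result about the list. Without sham GFP right or without TBI VEGFC left the count of higher genes was 0.

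By a rule for the genes with the largest ratios (at least 20 UMIs in 5 or more nuclei and the same direction in all 6 libraries), 246 genes qualified as higher. The first was Mir670hg, a noncoding host transcript, with 266 UMIs against 3.02 expected (88-fold, 77.8 to 99.3), at 558 to 1507 CPM in the libraries against 9.05 to 18.2 CPM. Tll1 came second. Samd4, an RNA-binding translational repressor, had 104 against 3.02 and ranked first of the clusters. Elmo1, a Rac activator, had 141 against 6.62, with 22.7% from 1 nucleus. Mapk4, an atypical MAP kinase, had 277 against 30.4 and was at 463 to 1450 CPM.

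Adgrl3, a latrophilin adhesion receptor of synapses, had the most UMIs of these, 1445 in 54 of 55 nuclei against 196.7 expected. Others among the first 25 were Dpysl5 (30 against 3.19), Plpp4 (47 against 5.17), Megf11 (29 against 2.91), Sdk1, a synaptic adhesion protein (63 against 7.67), Frmd6 (67 against 8.88), Mir22hg (26 against 3.99), Pde10a, a cyclic nucleotide phosphodiesterase (418 against 64.2), March11 (58 against 9.33) and Cntn3, a contactin (433 against 73). Of the first 25 genes, 10 belong to the 3 activity lists and 15 do not.

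For lower genes the 20 UMIs were those expected and not those found, while UMIs in 5 or more nuclei were still needed. Genes nearly absent from the cluster could therefore not qualify. By this rule 449 genes qualified as lower. Those with the smallest ratios included Cyp7b1, an oxysterol hydroxylase (12 UMIs against 84.5 expected), Fyco1 (6 against 39.4), Frmd4b (15 against 98), Csgalnact1 (7 against 42.5), Dpf3 (5 against 29.9), Scn1a, a sodium channel (6 against 35), Slc44a5 (12 against 69), Sesn1 (7 against 37.3) and Calb1. Against Excitatory neuron 1 as the reference, Frmd4b, Csgalnact1 and Dpf3 were higher in the cluster. Counted over all genes, 402 were higher and 929 lower (30.2% higher), and relative to the median gene 511 and 738 (40.9% higher).

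Single nuclei varied widely. Of the 55 members, 10 had UMIs of all 5 marker genes, 12 of 4, 16 of 3, 9 of 2, 6 of 1 and 2 of none. After thinning to 1000 UMIs, the late list gave a median of 5 UMIs (range 0 to 15) in members and 1 (0 to 8) in Excitatory neuron 2 and 3. The 2 rapid lists together gave a median of 2 (0 to 19) and 0 (0 to 14). 41 members had UMIs of both late and rapid genes and 12 of late genes alone. The 5 members with the most rapid UMIs, pointed out after their values were seen, held 19, 17, 17, 13 and 12 rapid UMIs and 4, 4, 2, 2 and 4 late UMIs. They came from both sham libraries, TBI GFP left and TBI VEGFC left, and none was above the members' median of 5 late UMIs. At full depth, 21 members had a UMI of Fos, Fosb, Npas4 or Arc.

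**Figure D4:**
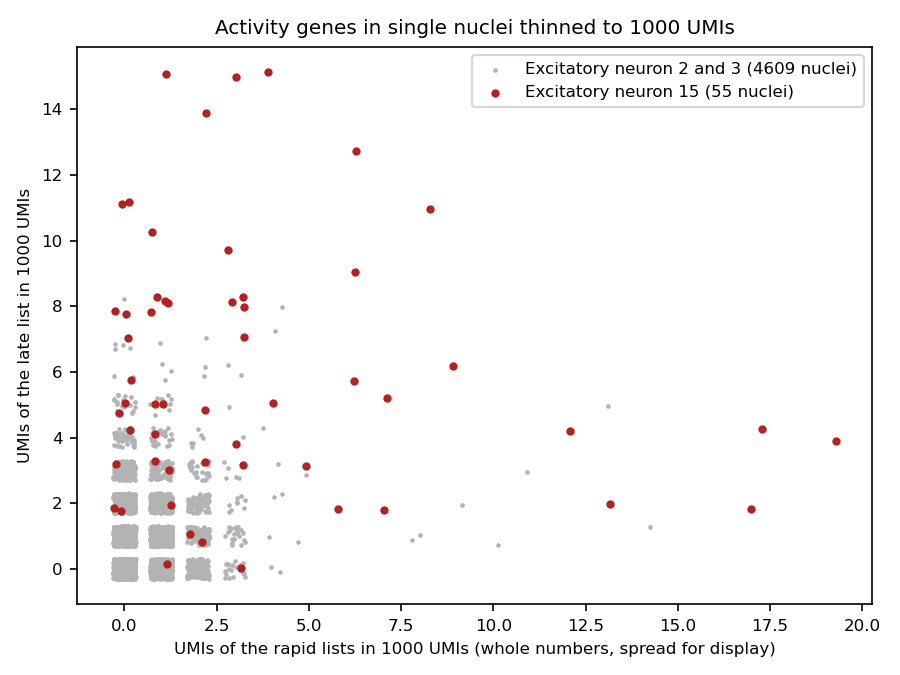
UMIs of the late list (vertical axis) against UMIs of the 2 rapid lists together (horizontal axis) in each nucleus thinned to 1000 UMIs, with points spread slightly around whole numbers. Members (red) reach 15 late and 19 rapid UMIs, and Excitatory neuron 2 and 3 nuclei (grey) 8 and 14.

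The authors' separate clustering of neurons put 47 of the 55 members in its cluster Excitatory 18, 5 in Excitatory 2 and 3 in Excitatory 3. The 8 placed elsewhere had Nptx2 at 25.5 CPM, from 1 UMI, against 169 CPM in the 47. Tll1 (179 against 503 CPM) and Homer1 (485 against 1098 CPM) were also lower in the 8, with exact Poisson intervals apart from those of the 47. Lower values were also found for Pcdh8 (179 against 450 CPM, 7 UMIs in the 8) and Prox1 (204 against 435 CPM, 8 UMIs). The same held for Synpo (306 against 561 CPM, 12 UMIs) and Arc (76.5 against 135 CPM, 3 UMIs). For Nptx2, Pcdh8, Prox1, Synpo and Arc the intervals of the 8 and the 47 overlapped. Nuclei were placed by expression that includes these genes, so these levels are descriptions without a test. Bdnf (485 against 513 CPM), Sorcs3 (1965 against 2118 CPM) and Ntrk2 (1046 against 1117 CPM) were nearly equal. 9 further nuclei of Excitatory 18 belong to Excitatory neuron 2 or 3. They had Bdnf at 171 CPM, Sorcs3 at 780 CPM and Arc at 97.5 CPM, between the other Excitatory neuron 2 and 3 nuclei (83.9, 72.6 and 1.23 CPM) and the members. Ntrk2 was at 171 CPM, below the 226 CPM of those other nuclei, and Nptx2 had 0 UMIs. Their 41008 UMIs hold 7 of Bdnf and 4 of Arc.

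Across conditions, the cluster was 0.186% of nuclei (8 of 4312) in sham GFP right and 0.1% (6 of 6002) in sham VEGFC right. After TBI it was 0.101% (5 of 4950) on the right and 0.147% (8 of 5428) on the left with GFP. With VEGFC it was 0.257% (11 of 4282) on the right and 0.462% (17 of 3676) on the left. TBI VEGFC left was the highest, with an exact binomial 95% interval of 0.270 to 0.739. Such intervals cover the counting of nuclei in 1 library and not the spread between libraries of a condition. Of Excitatory neuron 2, 3 and 15 nuclei it was 1.23%, 0.635%, 0.758%, 0.816%, 1.33% and 2.82%. VEGFC shares were lower than GFP shares in the sham context (log2 ratio -0.89) and higher after TBI (1.35 on the right, 1.65 on the left), with a mean of 0.70 (SD 1.39, n = 3 contexts). The mean did not differ from 0 beyond this spread (p = 0.5 by exact permutation of signs, two-sided, where 0.25 is the smallest p possible). TBI VEGFC left also had the deepest nuclei (median 5912 UMIs in members and 4871 in Excitatory neuron 2 and 3). Over nuclei with at least 2000 UMIs alone the mean log2 ratio was 0.55. Because nuclei were assigned on the expression of these same genes, more nuclei and higher levels of the genes cannot be told apart.

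**Figure D5:**
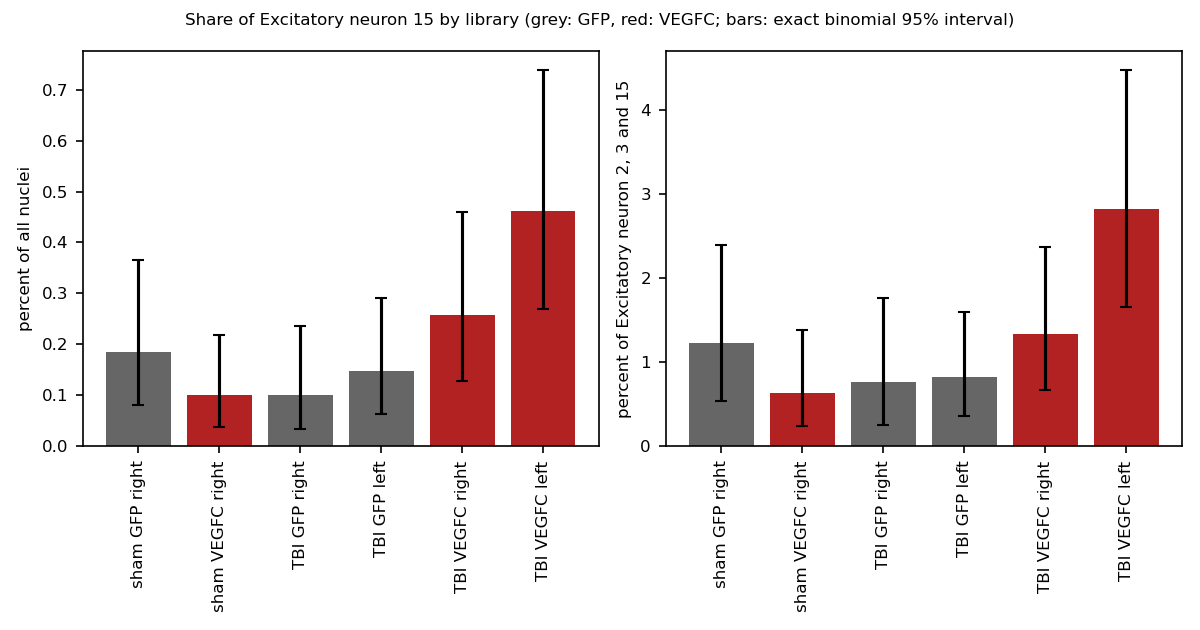
Share of Excitatory neuron 15 among all nuclei (left) and among Excitatory neuron 2, 3 and 15 nuclei (right) in each library, in percent, with exact binomial 95% intervals; grey bars are GFP and red bars VEGFC libraries. TBI VEGFC left is highest at 0.462% and 2.82%.

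Counts summed per library were tested with edgeR's quasi-likelihood test for the effect of vector, of TBI right against sham right and of TBI left against TBI right. 615 genes had enough counts, and 0% passed an adjusted p of 0.05 in any of the 3 comparisons, which share libraries. At an unadjusted p under 0.05 there were 16, 41 and 17 genes with edgeR, 7, 24 and 3 with DESeq2 and 45, 55 and 45 with limma-voom. On simulated counts with the same depths, the vector comparison recovered 31.3% of genes changed 2-fold, 83.6% of those changed 4-fold and 89.4% of those changed 8-fold, and in all it called 3 unchanged genes. The simulation changed 67, 67 and 66 of the 615 genes by these sizes and took its spread from this fit. Where fewer genes change, the adjustment is stricter and recovery can be lower, so these shares do not give the recovery in the real data.

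For vector, the smallest p values were those of Kcnd2, a potassium channel of dendrites (log2 change -0.91, SE 0.19, adjusted p 0.502), Otud7a (1.42), Gria4 (3.23), Ncam1 (1.67) and Tll1 (-1.36, SE 0.46, adjusted p 0.989), none of which passed in edgeR. Tll1 was lower with VEGFC in each context, at 63.6 against 729 CPM in sham right, 169 against 558 CPM in TBI right and 408 against 694 CPM in TBI left. Of the 8 late genes tested, 4 had a positive and 4 a negative estimate, with a median of 0.04.

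For TBI right against sham right, the smallest p values were those of Cdh8 (-2.29), Rev3l (-2.31), Sgip1 (-1.93), Adgrl3 (1.11, SE 0.31) and Nrg1 (1.31), each with an edgeR adjusted p of 0.380. Adgrl3 was at 2795 and 4388 CPM in the sham libraries and at 5684 to 8144 CPM in the 4 TBI libraries. Without sham VEGFC right or without TBI VEGFC right, a group of this comparison held only 1 library, so effect sizes alone are given. The estimates were then 1.53 and 1.498 for Adgrl3. For Homer1 they were -3.59 and -3.43, beside -1.91 with all libraries. Both settings keep sham GFP right and TBI GFP right, which had the highest and the lowest Homer1 level, at 1920 and 112 CPM.

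The summed level of the rapid transcription factors was 2965 and 3880 CPM in the sham libraries and 1004, 925, 1154 and 1338 CPM in the TBI libraries. In Excitatory neuron 2 and 3 it was 216 to 261 CPM. The sham and TBI values did not overlap. How many of all genes separate the libraries in this way was not counted, so this is no result by itself. Single nuclei weighed heavily: 1 nucleus gave 60 of the 122 UMIs in sham GFP right and 1 gave 39 of 61 in sham VEGFC right. Without the top nucleus of each library the levels were 1790 and 1769 CPM in sham and 600 to 1127 CPM in TBI. Only 2 of the 23 genes were tested, and Egr3 (-3.82, SE 1.10, adjusted p 0.380 in edgeR) did not pass. The rapid effectors overlapped, at 3451 and 1717 CPM in sham and 793 to 2296 CPM in TBI, as did the late genes, at 5492 and 3244 CPM in sham and 5020 to 6927 CPM in TBI.

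For TBI left against TBI right, the smallest p values were those of Elmo1 (1.48, SE 0.42), Slc7a14 (-1.30), Nkain2 (0.79), Fndc9 (-1.09) and Plxdc2 (1.86), each with an edgeR adjusted p of 0.993. Elmo1 was at 892 and 769 CPM in the left libraries and 279 and 281 CPM in the right ones. Without sham GFP right, 1 gene passed, Malat1 (-0.24).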

How the data were processed

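Nuclear RNA from microdissected hippocampi was captured in 10x 3' droplet libraries, per the labels. Per the submitters' processing notes, the authors used mm10, Scanpy and Cell Ranger 7.0.1, with no settings stated. Raw UMI counts were deposited for 26049 genes. The authors' clusters, percent of mitochondrial UMIs and doublet score (tool not stated) were deposited for each nucleus. The lowest total was 1001 UMIs, the highest mitochondrial share 0.999% and the highest doublet score 0.099. All nuclei were kept and no doublet caller was run.

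Members and gene lists were chosen with earlier results of these data known. Counts were summed over members and over Excitatory neuron 2 and 3, as CPM of all UMIs. A gene was called higher with at least 10 UMIs and a ratio of at least 2, and lower with at least 10 UMIs expected and a ratio of at most 0.5. Nuclei were thinned to 1000 UMIs without replacement for shares of nuclei, and no nucleus was shallower. Named genes were the list members, the 25 highest and 10 lowest ratios under the rule given in the text, and the 5 smallest p in each fit. Of the qualifying genes, 11 higher and 27 lower have clone names and are counted but not named. A few list members and 1 leading lower gene are not reported here. Sums per library were tested with edgeR 4.0.16 in R 4.3.3 (filterByExpr, TMM, context plus vector, 2 residual degrees of freedom, Benjamini-Hochberg over 615 genes). The estimated spread leans on other genes, with a median of 7.97 prior degrees of freedom. DESeq2 1.42.0 and limma 3.58.1 were alternatives. The test was checked on simulated data. Tables were handled in Python 3.11.15 with numpy 2.4.6, scipy 1.17.1 and pandas 2.3.3. Alternatives to reference, weighting, filter, scaling and libraries are given in the closing section.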

Additional observations from a re-analysis of the deposited data

Results flagged for a closer look

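The share of nuclei in the cluster was lower with VEGFC in the sham context (log2 VEGFC over GFP -0.892) and higher in both TBI contexts (1.35 on the right and 1.65 on the left). Nptx2 was higher with VEGFC in the sham context (log2 0.388, from 4 and 2 UMIs) and lower in TBI right (-0.139) and TBI left (-1.80). Both were picked out because the contexts moved in opposite directions, and neither difference was tested, since each context has 1 library per vector. With VEGFC, the median UMIs of members were lower in the sham context (2727 against 4556) and in TBI right (2847 against 3367), and higher in TBI left (5912 against 3616).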

How the results depend on the processing

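The 0 genes passing for vector held under every alternative run. For TBI right against sham right, leaving out TBI GFP left or TBI VEGFC left gave 0 genes. For TBI left against TBI right, leaving out sham GFP right gave 1 gene and leaving out sham VEGFC right 0. Other genes were tested in each. Leaving out a library of the groups compared leaves 1 library in a group, so no count is given there. The median of the late list, 3.20, was 2.75 against Excitatory neuron 2 alone, 3.55 against Excitatory neuron 3 alone, 2.89 against Excitatory neuron 1, 2.71 with the addition scaled to depth, and 2.76 to 3.25 leaving out each library, lowest without TBI VEGFC left. The median of rapid transcription factors, 3.47, was 2.08 against Excitatory neuron 1, 4.28 with equal weight to libraries, 4.36 after thinning and 2.32 with the addition scaled to depth. That of rapid effectors, 3.59, was 1.72 against Excitatory neuron 1, 4.47 with equal weight to libraries, 2.08 with the addition scaled to depth and 2.85 over members with at least 10 UMIs. The fixed addition of 1 UMI raises the ratio of undetected genes because the 2 sums differ in depth. Scaled additions, the limit to members with at least 10 UMIs, the median gene as scale and the list counts without single libraries were chosen after seeing the data. Of 555 values for 37 single genes, 510 moved by less than the spread between libraries, 42 by more, and 3 reversed, all against Excitatory neuron 1: Frmd4b (0.0831), Csgalnact1 (0.50) and Dpf3 (3.23). The mean share ratio, 0.70, ranged from 0.227 to 1.498 leaving out each library. GFP and VEGFC libraries were matched by context in the vector comparisons, and no replicate number is shared between groups. Libraries of 5 to 17 nuclei limit every value per library.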
